A study of Mus musculus with 14 samples.

Results

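The 44 genes described here lie on mouse chromosome 19 and were listed as a possible readout of its expression level tumour by tumour. They are a list of named genes, chosen by their fold changes between the genotypes in these same libraries, and were kept at a mean CPM (counts scaled to a common library size) of at least 1. All 44 met that level, out of 23284 genes in the files and 754 genes placed on chromosome 19. The member closest above the threshold was Cdc42ep2 at 2.20 CPM, followed by Tcf7l2 at 2.78 CPM, and no listed gene was under it. Because fold changes between the genotypes helped to choose the list, they are given for the members as a description and no p-value is attached to them. For the same reason the members can overstate the shift of the chromosome, so its other tested genes are given beside them.

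RNA was sequenced from primary small cell lung cancers of genetically engineered mice, in 14 libraries. RPC denotes the 7 tumours of the Rb1/Trp53/Crebbp genotype and RP the 7 tumours of the Rb1/Trp53 genotype. Both groups thus share loss of the tumour suppressor genes Rb1 and Trp53. RPC tumours alone also carry deletion of Crebbp, a histone acetyltransferase gene. The sources used here give no strain, age or Cre driver and do not tie tumours to mice. Tumours may thus share a mouse, so the 7 libraries of a group may not be independent, and their spread may be partly technical. The study looked for genes whose expression depends on Crebbp in this cancer.

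Cells normally carry each autosome as a pair, and tumours of this type often gain or lose whole chromosomes or arms. When a chromosome is gained, most of its transcripts tend to rise together by a modest factor whatever their function, while regulated genes can depart from that level. Mouse chromosome 19 is the smallest autosome, is dense in genes near its centromeric end, and carries many genes that nearly all cells use, among them DNA replication, splicing and translation factors. RNA alone was measured here: more copies of the chromosome and more transcription from each copy cannot be told apart, and in bulk tumour RNA neither can fewer cells of a type and less RNA per cell.

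Libraries held between 10060969 and 24052799 gene counts in RPC tumours and between 10965714 and 23678648 in RP tumours. Crebbp itself was counted at 57.9 to 70.0 CPM in RPC tumours and 59.4 to 97.2 CPM in RP tumours (log2 fold change -0.24, SE 0.12, edgeR adjusted p = 0.265). Counts over the whole gene include any exons that were not deleted, so they do not test the labels. Neuroendocrine genes that mark this cancer were detected in every library, with Chga at 214.9 to 1022 CPM and Syp at 116.2 to 275.3 CPM over the 14 tumours. RPC tumours 3, 5 and 6 stood apart in markers of other cell types: 23 of 29 markers (endothelium, fibroblasts, macrophages, lymphocytes, club and alveolar type 2 cells) were lower in all 3 than in any RP tumour. Their 6 macrophage markers summed to 3.22 to 6.73 CPM, against 216.8 to 1683 CPM in the other RPC tumours and 344.5 to 1078 CPM in RP tumours. The 5 fibroblast markers summed to 3.46 to 118 CPM in the 3, against 256 to 602.4 CPM in the other RPC tumours and 212.5 to 818.4 CPM in RP tumours. The 5 endothelial markers summed to 10.6 to 118.7 CPM in the 3, against 343.6 to 1411 CPM in the other RPC tumours and 572.7 to 2366 CPM in RP tumours. Lymphocyte markers summed to 0.217 to 0.536 CPM in the 3, against 2.64 to 13.5 CPM in the other RPC tumours and 1.99 to 44.7 CPM in RP tumours. The alveolar type 2 and club cell lists set the 3 apart less from the other RPC tumours. Alveolar type 2 markers summed to 51.7 to 141.1 CPM in the 3, against 110.5 to 2702 CPM in the other RPC tumours and 160.7 to 1543 CPM in RP tumours, with RPC tumour 4 also below every RP tumour. Club cell markers summed to 1.14 to 21.1 CPM in the 3, against 21.2 to 2185 CPM in the other RPC tumours and 22.2 to 2412 CPM in RP tumours, with RPC tumour 1 nearly equal to RPC tumour 6. The endothelial gene Cdh5 and the macrophage gene Emr1 had 0 counts in all 3. Kdr, Pdgfra, Cd8a, Abca3, Scgb3a2 and Cyp2f2 were not below every RP tumour in all 3. The endothelial gene Kdr was at 1.16 to 82.9 CPM in the 3, against 13.8 to 29.4 CPM in RP tumours. The fibroblast gene Pdgfra was at 0.73 to 117.1 CPM in the 3, against 6.24 to 39.1 CPM in RP tumours. Results that rest on these libraries are given with and without them.

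As a group the members were higher in RPC tumours. Their median log2 fold change was 0.74, against 0.41 over the 457 other tested genes of chromosome 19 and 0.002 over all 14804 tested genes. Positive values were found for 39 of the 44 members, beside 50.2% of all tested genes, and the quartiles of the 44 values were 0.42 and 0.97. A score per tumour was taken as the median, over the members, of log2 CPM minus the gene's mean in RP tumours. It averaged 0.73 ± 0.25 in RPC tumours and -0.0097 ± 0.17 in RP tumours (SD, n = 7 each).

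**Figure D1:**
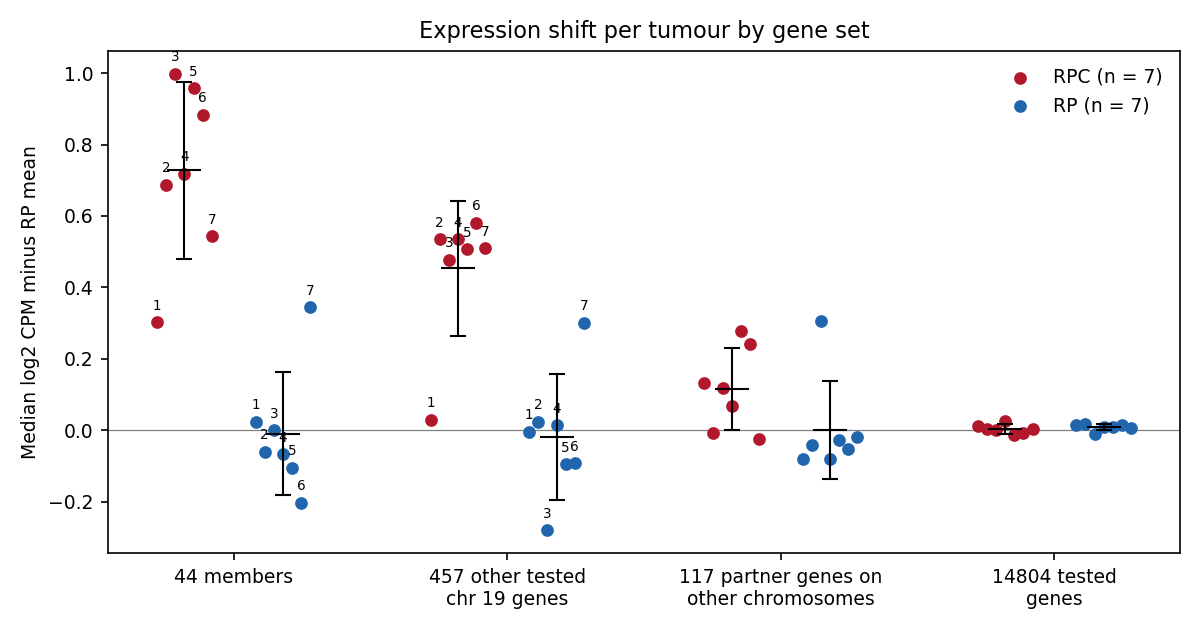
Median log2 CPM minus the RP mean (vertical axis, log2 units) for each tumour, over the members, the other tested genes of chromosome 19, partner genes on other chromosomes and all tested genes. Points are tumours, numbered as in the labels for the first 2 sets, and bars are mean and SD; member scores were 0.30 to 0.999 in RPC tumours and -0.20 to 0.34 in RP tumours, with RPC tumour 1 and RP tumour 7 between the bulk of both genotypes.

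The score was 0.999 in RPC tumour 3, 0.96 in RPC tumour 5 and 0.88 in RPC tumour 6, the same 3 libraries that were low in markers of other cell types. It was 0.72, 0.69, 0.54 and 0.30 in RPC tumours 4, 2, 7 and 1. In RP tumours it was 0.34 in tumour 7, and between -0.20 and 0.02 in the other 6. The 2 genotypes therefore overlapped through a single pair, RPC tumour 1 below RP tumour 7. RPC tumour 1 was the lowest RPC library for 25 of the 44 members, and RP tumour 7 was the highest RP library for 20 of them.

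The other genes of chromosome 19 gave a flatter picture among RPC tumours. Their score was between 0.48 and 0.58 in RPC tumours 2 to 7, including the 3 libraries that stood apart, and 0.03 in RPC tumour 1. In RP tumours it was 0.30 in tumour 7 and between -0.28 and 0.02 in the rest. The same score was also taken over all tested genes of each of 20 chromosomes, with the members included for chromosome 19. By it chromosome 19 ranked highest in each of RPC tumours 2 to 7 and ranked 9 in RPC tumour 1. It ranked 2 in RP tumour 7 and between 10 and 19 in the other RP tumours. Mean scores differed between genotypes by 0.51 for chromosome 19, 0.27 for chromosome 18 and 0.19 for chromosome 14. The lowest difference was -0.14, for chromosome 15. Part of the gap between members and other genes of the chromosome went with expression level. The other genes with a mean of at least 20 CPM, 267 of them, had a median log2 fold change of 0.56, and the 190 under that level had 0.15, while the 39 members at 20 CPM or more had 0.77. The flatter score of the other genes joined unlike parts. Those 267 genes scored 0.69, 0.65 and 0.75 in RPC tumours 3, 5 and 6, against 0.56, 0.61 and 0.55 in tumours 2, 4 and 7. The 190 scored 0.02, 0.10 and 0.02 in tumours 3, 5 and 6, against 0.46, 0.26 and 0.47.

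The same difference was visible in raw shares of the library. Members took 0.488% to 0.773% of all gene counts in RPC tumours (median 0.667%) and 0.332% to 0.506% in RP tumours (median 0.388%). All genes of chromosome 19 took 2.15% to 3.34% in RPC tumours and 1.799% to 2.89% in RP tumours. Leaving out Malat1, an abundant nuclear RNA of this chromosome, changed little: 2.12% to 3.29% in RPC tumours and 1.78% to 2.86% in RP tumours. In both cases RPC tumour 1 was the lowest RPC library and RP tumour 7 the highest RP library.

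By the edgeR quasi-likelihood test over all genes, 23 of the 44 members passed an adjusted p of 0.05 as higher and 0 as lower (32 were higher at an unadjusted p under 0.05), beside 1.09% of all tested genes called higher and 1.12% called lower. Of the 457 other tested genes of chromosome 19, 62 passed as higher and 0 as lower. Since this contrast helped to choose the members, nothing is read from the members' count. It was 30 with DESeq2, where 4.65% of tested genes were called higher and 5.01% lower, and 27 with limma-voom. Leaving out a single RPC library gave 5 (tumour 3), 15 (tumour 4), 14 (tumour 5) and 13 (tumour 6) calls. Leaving out a single RP library gave 9 (tumour 2), 8 (tumour 4), 11 (tumour 5) and 6 (tumour 6). Without RPC tumours 3, 5 and 6 together it was 0, with 0.0195% of tested genes called higher and 0.0521% lower. It was 0 with a term for the mean of markers of other cell types, with 0.0135% called higher and 0.0203% lower. At an unadjusted p under 0.05, 29 members were higher without the 3 libraries, beside 4.83% of tested genes, and 30 with the marker term, beside 4.26%. Fold changes did not vanish there: the members' median was 0.61 without the 3 libraries and 0.63 with the marker term, 41 and 42 of 44 being positive. The libraries left had also served to choose the members, so these values are a description. Medians of the other tested genes of chromosome 19 were 0.38 and 0.42. Without the 3 libraries the log2 fold change was smaller in 37 of the 44 members. These include all 23 called members, whose calls came from a fit that holds those libraries.

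**Figure D2:**
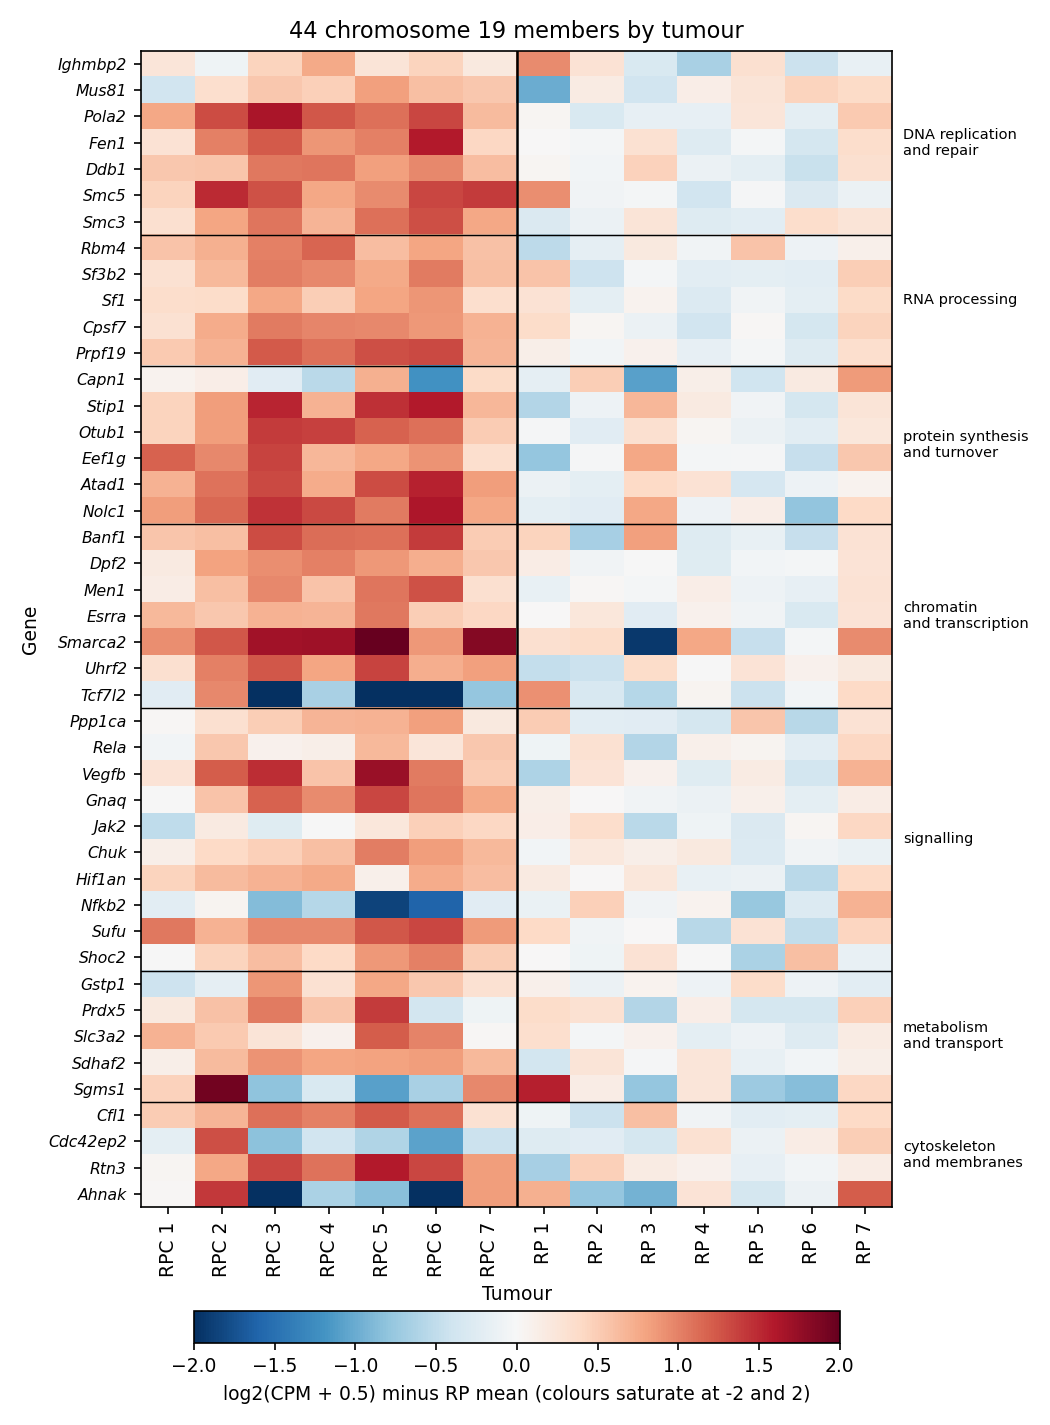
Each of the 44 members (rows, by function) in each tumour (columns, RPC left of the line), coloured by log2(CPM + 0.5) minus the mean of RP tumours. Most rows are red across RPC tumours 2 to 7, paler in RPC tumour 1, and Tcf7l2, Ahnak, Nfkb2 and Cdc42ep2 are blue in RPC tumours 3, 5 and 6.

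In 8 members every RPC tumour was above every RP tumour, beside 0.513% of tested genes and 28 of the 457 other tested genes of chromosome 19. In another 14 members 6 of the 7 RPC tumours were. In 13 of those 14 the lone RPC tumour inside the RP range was RPC tumour 1. The share of all tested genes with 6 of 7 was not counted. As the members were chosen by this contrast, nothing is read from these counts.

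Counts of positive and called members in the function groups below stand beside 50.2% positive and 1.09% called higher over all tested genes. Of the 457 other tested genes of chromosome 19, 341 were positive and 62 called higher. As the members were chosen by this contrast, nothing is read from the counts by group. The DNA replication and repair members had a median log2 fold change of 0.87, all 7 of them positive and 5 called. Pola2, the regulatory subunit of DNA polymerase alpha, was at 64.8, 98.2 and 130 CPM (lowest, median and highest) in RPC tumours and at 33.4, 37.0 and 60.1 CPM in RP tumours, and the groups did not overlap. Its log2 fold change was 1.16 (SE 0.18), or 1.001 without RPC tumours 3, 5 and 6. Smc5, a subunit of the SMC5/6 genome stability complex, was at 112, 199 and 232 CPM in RPC tumours and at 62.6, 77.8 and 157 CPM in RP tumours. RP tumour 1 supplied that last value, above 2 of the RPC tumours, while the other 6 RP tumours lay at or below 80.9 CPM. Smc3, a ring subunit of cohesin, was at 189, 262 and 372 CPM in RPC tumours and 125, 140 and 193 CPM in RP tumours, overlapping through RPC tumour 1 only. Ddb1, the adaptor of CUL4 ubiquitin ligases, was at 467, 562 and 669 CPM in RPC tumours and 234, 306 and 442 CPM in RP tumours, with no overlap. Log2 fold changes were 1.08 (SE 0.22) for Smc5, 0.87 (SE 0.16) for Smc3 and 0.79 (SE 0.16) for Ddb1. Fen1, the flap endonuclease of lagging-strand synthesis, had 0.96 (SE 0.19). Mus81, a structure-selective nuclease, had 0.40 (SE 0.25), with 5 RPC tumours above every RP tumour. Ighmbp2, a helicase, had 0.25 (SE 0.25), and no RPC tumour was above every RP tumour.

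RNA-processing members had log2 fold changes from 0.57 to 1.001, all 5 positive and 4 called. Prpf19, a ubiquitin ligase of the spliceosome, was at 174, 259 and 301 CPM in RPC tumours and 100.1, 117 and 152 CPM in RP tumours, without overlap (log2 fold change 1.001, SE 0.15). Cpsf7, a subunit of cleavage factor Im that acts in 3′ end formation, was at 125, 187 and 208 CPM in RPC tumours and 77.7, 103 and 138 CPM in RP tumours (0.79, SE 0.16). Sf3b2, a component of the U2 small nuclear ribonucleoprotein, was at 324, 445 and 541 CPM in RPC tumours and 198, 230 and 390 CPM in RP tumours (0.74, SE 0.18). For both of these genes only RPC tumour 1 lay inside the RP range. Sf1, which recognises the branch point of introns, was at 326, 366 and 482 CPM in RPC tumours and 214, 246 and 339 CPM in RP tumours (0.57, SE 0.15), with 4 RPC tumours above every RP tumour. Rbm4, an RNA-binding regulator of splicing, had 0.77 (SE 0.18).

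Among protein synthesis and turnover members, 5 of 6 were positive and 4 called, with a median log2 fold change of 1.03. Nolc1, a nucleolar chaperone of small ribonucleoproteins, was at 122, 157 and 219 CPM in RPC tumours and 40.9, 65.8 and 121 CPM in RP tumours (1.13, SE 0.22). Atad1, an ATPase that pulls misplaced proteins from the mitochondrial outer membrane, was at 89.96, 118 and 162 CPM in RPC tumours and 43.98, 51.7 and 73.3 CPM in RP tumours (1.09, SE 0.16). Neither gene's groups overlapped, though for Nolc1 the gap between RPC tumour 7 and RP tumour 3 was small. Stip1, a co-chaperone that joins HSP70 and HSP90, was at 199, 260 and 439 CPM in RPC tumours and 97.3, 138 and 230 CPM in RP tumours (1.05, SE 0.23). Its fold change was 0.62 without RPC tumours 3, 5 and 6, its 3 highest libraries. Eef1g, a subunit of the translation elongation factor 1 complex, was at 263, 386 and 529 CPM in RPC tumours and 122, 203 and 356 CPM in RP tumours (0.83, SE 0.23), and 2 RPC tumours lay inside the RP range. Otub1, a deubiquitinase, had 1.01 (SE 0.17) with no overlap. Capn1, a calcium-dependent protease, was the exception, at 10.5, 26.1 and 41.2 CPM in RPC tumours and 11.4, 27.1 and 45.2 CPM in RP tumours (-0.10, SE 0.32).

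Chromatin and transcription members had a median of 0.75, with 6 of 7 positive and 4 called. Smarca2, an ATPase of SWI/SNF remodelling complexes, had the largest fold change of any member, 1.32, with the widest error of the positive members of its group (SE 0.35). It was at 50.6, 89.7 and 115 CPM in RPC tumours and at 6.89, 34.6 and 53.8 CPM in RP tumours, the lowest of which was RP tumour 3. Uhrf2, a ubiquitin ligase that binds modified DNA, was at 60.5, 85.7 and 123 CPM in RPC tumours and 34.4, 50.9 and 62.2 CPM in RP tumours (0.90, SE 0.18). Banf1, a chromatin-binding protein of the nuclear envelope, was at 119, 180 and 222 CPM in RPC tumours and 52.5, 75.3 and 148 CPM in RP tumours (0.90, SE 0.24), with 3 RPC tumours inside the RP range. Dpf2, another SWI/SNF subunit, was at 68.9, 107 and 123 CPM in RPC tumours and 51.7, 59.3 and 73.6 CPM in RP tumours (0.74, SE 0.13), overlapping through RPC tumour 1 only. Men1, the scaffold menin of MLL complexes, had 0.75 (SE 0.17), and Esrra, an orphan nuclear receptor of mitochondrial genes, had 0.66 (SE 0.15) with no overlap. Tcf7l2, a transcription factor of the Wnt pathway, had a negative value, at 0, 1.72 and 6.89 CPM in RPC tumours and 2.07, 3.15 and 6.66 CPM in RP tumours. Its log2 fold change was -0.85 (SE 0.82) and was -0.086 without RPC tumours 3, 5 and 6, in which the gene was at 0.314, 0.0543 and 0 CPM.

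Signalling members had a median of 0.55 over 10 genes, 9 positive and 3 called. Sufu, a negative regulator of Hedgehog signalling, was at 18.7, 22.6 and 29.4 CPM in RPC tumours and 7.58, 11.4 and 15.4 CPM in RP tumours, without overlap (1.02, SE 0.21). Vegfb, a growth factor of the VEGF family, was at 31.9, 54.2 and 87.4 CPM in RPC tumours and 17.0, 27.9 and 42.5 CPM in RP tumours (1.01, SE 0.26). In RPC, 3 tumours lay inside its RP range. Gnaq, a G protein alpha subunit, was at 68.7, 133 and 175 CPM in RPC tumours and 60.2, 69.3 and 76.6 CPM in RP tumours (0.89, SE 0.17), overlapping through RPC tumour 1. Ppp1ca, a catalytic subunit of protein phosphatase 1, was at 256, 356 and 446 CPM in RPC tumours and 171, 218 and 371 CPM in RP tumours (0.43, SE 0.20), and 4 RPC tumours lay inside the RP range. Chuk, the kinase IKK alpha, had 0.61 (SE 0.15), Hif1an, which hydroxylates HIF proteins, 0.56 (SE 0.15), and Shoc2, a scaffold of the RAS pathway, 0.54 (SE 0.19). Jak2, the cytokine receptor kinase, was at 35.4, 57.1 and 70.4 CPM in RPC tumours and 34.5, 51.6 and 67.2 CPM in RP tumours (0.080, SE 0.19), with nearly the same range in both.

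Rela and Nfkb2 encode NF-kappaB subunits. Rela, which encodes the p65 subunit, was at 63.6, 78.3 and 105 CPM in RPC tumours and 44.1, 69.0 and 89.0 CPM in RP tumours (0.29, SE 0.17). Nfkb2, which encodes the p100 precursor of p52, was at 4.72, 12.1 and 18.99 CPM in RPC tumours and 10.6, 17.4 and 29.9 CPM in RP tumours (-0.70, SE 0.33). Its 3 lowest libraries were RPC tumours 5, 6 and 3, and its fold change was -0.30 without them.

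In the metabolism and transport group all 5 were positive but 1 was called, with a median of 0.54. Sdhaf2, the factor that helps flavinate succinate dehydrogenase, was at 24.9, 39.8 and 43.1 CPM in RPC tumours and 17.6, 22.5 and 27.4 CPM in RP tumours (0.69, SE 0.16), RPC tumour 1 being the lone one inside the RP range. Slc3a2, the heavy chain of amino acid transporters, was at 90.5, 128 and 206 CPM in RPC tumours and 74.0, 86.9 and 113 CPM in RP tumours (0.59, SE 0.19). Prdx5, a peroxiredoxin, was at 40.7, 76.8 and 138 CPM in RPC tumours and 34.8, 57.7 and 72.8 CPM in RP tumours (0.54, SE 0.27). Both overlapped in 3 RPC tumours. Gstp1, a glutathione transferase, had 0.38 (SE 0.20) and 0.027 without RPC tumours 3, 5 and 6. Gstp1 has a near-identical neighbour, so its count is uncertain. Sgms1, a sphingomyelin synthase, had 0.22 (SE 0.52), with single high libraries in both groups: 76.6 CPM in RPC tumour 2 and 58.8 CPM in RP tumour 1.

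Of the cytoskeleton and membrane members, Cfl1 and Rtn3 were higher and Ahnak and Cdc42ep2 were not. Cfl1, the actin-severing protein cofilin, was at 548, 887 and 1039 CPM in RPC tumours and 327, 418 and 672 CPM in RP tumours (0.84, SE 0.20). Rtn3, a reticulon of the endoplasmic reticulum, was at 187, 386 and 547 CPM in RPC tumours and 115, 195 and 254 CPM in RP tumours (1.03, SE 0.22). Rtn3 was lowest in RPC tumour 1, which sat under the RP median. Ahnak, a giant scaffold protein, was at 1.88, 42.5 and 177 CPM in RPC tumours and 34.3, 60.7 and 154 CPM in RP tumours (-0.21, SE 0.67). It was at 11.4, 37.1 and 1.88 CPM in RPC tumours 3, 5 and 6, and its fold change was 0.43 without them. Cdc42ep2, an effector of the GTPase CDC42, was at 0.80, 1.54 and 6.18 CPM in RPC tumours and 1.66, 2.04 and 3.36 CPM in RP tumours (-0.17, SE 0.43, and 0.28 without the 3). For Tcf7l2, Nfkb2, Ahnak, Cdc42ep2 and Sgms1, log2 fold changes with the marker term were -0.098, -0.23, 0.62, 0.34 and 0.86. The part played by cells of other types in the values of these 5 genes was not tested.

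Members lay along the whole chromosome. In the gene order of the RefSeq table for GRCm38.p6, 22 members lie among the 167 tested genes of chromosome 19 nearest the centromere, 14 among the next 167 and 8 among the last 167. Their median log2 fold changes were 0.70, 0.86 and 0.58. Over all tested genes in these sections the score differences between genotypes were 0.48, 0.52 and 0.50. Cut into 10 blocks of about 50 genes, the chromosome was above the RP mean in all 10 blocks in each of RPC tumours 2 to 7, with block values from 0.095 to 0.88. RP tumour 7 was above it in all 10 as well (0.18 to 0.41). RPC tumour 1 was above it in 7 blocks (-0.13 to 0.31) and RP tumour 3 in 0 (-0.59 to -0.070).

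**Figure D3:**
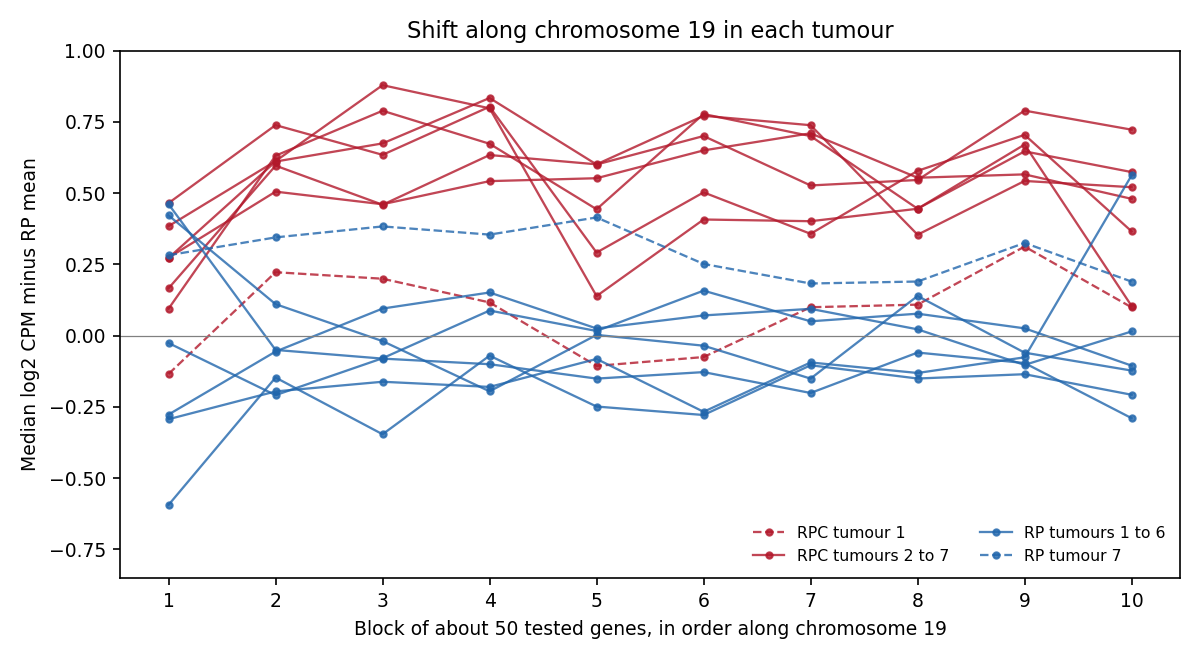
Median log2 CPM minus the RP mean (vertical axis) in 10 blocks of about 50 tested genes along chromosome 19, ordered from the centromere (horizontal axis). One line per tumour, RPC red and RP blue; RPC tumours 2 to 7 run above 0 in every block, RP tumour 7 does too at 0.18 to 0.41, and fewer than 6 RPC tumours lie above every RP tumour in blocks 1, 5 and 10.

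The difference between genotypes was not equal in every block. It was 0.22 in the first block, which runs from Ighmbp2 to Bbs1 and holds Gstp1, Ppp1ca and Rbm4, with RPC tumours at 0.22 ± 0.20 and RP tumours at -0.0034 ± 0.41 (SD, n = 7 each). Over the next 3 blocks, from Dpp3 to Sdhaf2, it was 0.59, 0.62 and 0.62, and these hold 22 members. Block 5, from Cpsf7 to Aldh1a1, had 0.36. Blocks 6 to 10 had 0.57, 0.54, 0.42, 0.62 and 0.40. In 7 of the 10 blocks 6 RPC tumours lay above every RP tumour.

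Many members work in complexes whose other subunits are encoded elsewhere. For 30 members, 117 tested partner genes on other chromosomes were compared in the same libraries, from a list of complex subunits, substrates and close regulators off chromosome 19. Their median log2 fold change was 0.15, with 76 of 117 positive, against 0.74 for the members and 0.002 for all tested genes. In edgeR 0 partners rose and 1 fell, beside 1.09% and 1.12% of all tested genes (26 of the 117 had an unadjusted p under 0.05, 15 of them higher, beside 21.3% of all tested genes, and DESeq2 called 4 higher and 3 lower). Without RPC tumours 3, 5 and 6 their median was 0.02. Of the 117 partners, 108 had a lower fold change than the member they work with, and in 28 of 30 cases the member was above the median of its partners. These counts carry the choice of the members with them and were not tested.

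**Figure D4:**
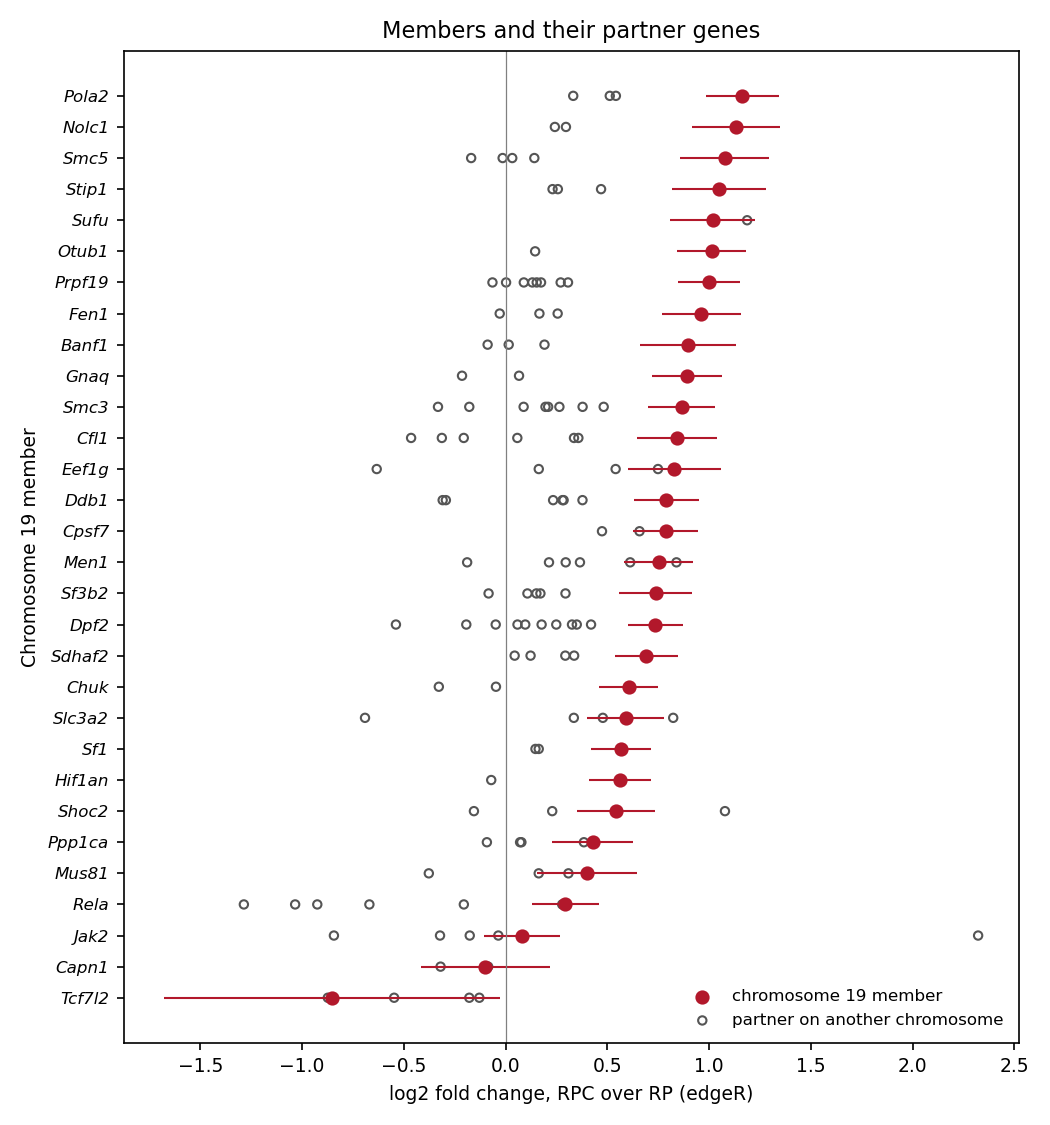
Log2 fold change, RPC over RP, for the 30 members with partners (filled, with SE) and for their 117 partner genes on other chromosomes (open), one row per member. In 108 of 117 cases the partner lies left of its member, and the others belong to Sufu, Shoc2, Men1, Jak2, Slc3a2, Capn1 and Tcf7l2.

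Within DNA replication, Pola2 at 1.16 stood beside partners of the same polymerase-primase complex: Prim1, the catalytic primase subunit on chromosome 10, at 0.54 (SE 0.16, edgeR adjusted p = 0.0869), Prim2 at 0.51 and Pola1 at 0.33. Pcna, the sliding clamp that holds Fen1, averaged 693 ± 154 CPM in RPC tumours and 580 ± 195 CPM in RP tumours (SD, n = 7 each; 0.26, edgeR adjusted p = 0.534). Beside Smc5 at 1.08, Smc6, its dimer partner on chromosome 12, was at 235 ± 48.2 CPM in RPC tumours and 230 ± 121 CPM in RP tumours (SD, n = 7 each; 0.03, edgeR adjusted p = 0.953). Beside Smc3 at 0.87, the cohesin gene Rad21 had -0.18 (edgeR adjusted p = 0.478) and Smc1a 0.38 (0.175). Beside Ddb1, the cullin gene Cul4a had 0.38 (edgeR adjusted p = 0.131), and Slx4, a nuclease scaffold that binds Mus81, had 0.16 (edgeR adjusted p = 0.484).

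In RNA processing the named partners had lower values than their members. Cpsf6, which forms that factor with Cpsf7 and Nudt21, averaged 276 ± 47.7 CPM in RPC tumours and 199 ± 40.0 CPM in RP tumours (SD, n = 7 each; 0.47, SE 0.15, edgeR adjusted p = 0.103), and Nudt21 had 0.66. Bcas2 of the Prpf19 complex had 0.27, U2af2, the partner of Sf1, 0.16, and Sf3b1 of the Sf3b2 complex 0.11 (edgeR adjusted p from 0.388 to 0.740). In protein synthesis, Eef1a1 had 0.54 and the chaperone Hspa8 0.47 (edgeR adjusted p = 0.198 and 0.276). Ube2n, the ubiquitin-conjugating enzyme that Otub1 inhibits, had 0.15, the nucleolar methyltransferase gene Fbl 0.24, and Capns1, the small subunit of calpain, -0.09 (edgeR adjusted p from 0.62 to 0.817).

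Partners of the chromatin and signalling members went both ways. Arid1a, the SWI/SNF subunit, had -0.19 and Tmpo, a nuclear envelope gene, 0.19 (edgeR adjusted p = 0.583 and 0.557). Psip1, which tethers menin complexes, had 0.84 (SE 0.42, edgeR adjusted p = 0.265). It was at 365, 486 and 2389 CPM in RPC tumours and 387, 428 and 794 CPM in RP tumours. In RPC, 2 tumours were above every RP tumour and 1 was below every RP tumour. Ctnnb1, which encodes the beta-catenin that binds Tcf7l2, was at 835 ± 125 CPM in RPC tumours and 1220 ± 272 CPM in RP tumours (SD, n = 7 each; -0.55, edgeR adjusted p = 0.0874). Gli3, a Hedgehog transcription factor bound by Sufu, was at 32.7 ± 20.6 CPM in RPC tumours and 14.4 ± 6.82 CPM in RP tumours (SD, n = 7 each; 1.19, SE 0.43, edgeR adjusted p = 0.133), and was the one partner tested for Sufu. Stat3, a target of Jak2, had -0.84 (edgeR adjusted p = 0.127). Stat5a, another, had the highest value of any partner, 2.32 (SE 0.65, edgeR adjusted p = 0.0693), with 11.2, 24.1 and 209 CPM in RPC tumours and 5.89, 12.7 and 20.3 CPM in RP tumours. Gna11, Ikbkb, Ppp1cc, Ppp1r8 and Hif1a, the other partners named for Gnaq, Chuk, Shoc2, Ppp1ca and Hif1an, had values between -0.09 and 0.23 (edgeR adjusted p from 0.392 to 0.898).

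The partner that fell was Nfkbia, which encodes the NF-kappaB inhibitor I-kappaB alpha and is itself a target of NF-kappaB. It averaged 41.4 ± 10.5 CPM in RPC tumours and 78.6 ± 16.5 CPM in RP tumours (SD, n = 7 each). In RPC, 6 of 7 tumours were below the lowest RP value (log2 fold change -0.93, SE 0.19, edgeR adjusted p = 0.0255). The adjusted p ranged from 0.000455 to 0.203 over 23 alternatives. The call was lost in 6 of the 23, among them the fits without RP tumour 2 (0.0534), RP tumour 6 (0.0573) or RPC tumour 3 (0.0536), without RPC tumours 3, 5 and 6 (0.177, at -0.75) and with the term for markers of other cell types (0.203, at -0.76). Other NF-kappaB genes off chromosome 19 did not pass: Relb had -1.29, Nfkbie -1.03, Nfkb1 -0.67, Nfkbib -0.21 and Rel 0.28 (edgeR adjusted p from 0.119 to 0.704). Macrophage markers summed to 3.22 to 1683 CPM in RPC tumours and 344.5 to 1078 CPM in RP tumours, and their part in these values was not tested.

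Among metabolic and cytoskeletal partners, none passed in edgeR. Sdha, the flavoprotein that Sdhaf2 matures, had 0.12 (edgeR adjusted p = 0.56). Slc7a5, the light chain paired with Slc3a2, averaged 133 ± 99.8 CPM in RPC tumours and 75.4 ± 25.3 CPM in RP tumours (SD, n = 7 each; 0.82, SE 0.42, edgeR adjusted p = 0.271). Actg1, a cytoplasmic actin severed by cofilin, had 0.34 (edgeR adjusted p = 0.535).

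Crebbp protein is a coactivator of CREB, which binds the cAMP response element, so the promoters of the members were searched for that motif. RefSeq promoter windows of GRCm38.p6, from 250 bases before to 50 bases after the gene start, were matched for 42 of the 44 members. The full element TGACGTCA, which reads the same on both strands, was found in 0 of 42, against 2.03% of genes with a window and 3.53% of tested genes. Its core TGACGT, on either strand and counted also within the full element, was found in 5 of 42 (11.9%), against 8.37% of all genes, 12.6% of tested genes and 14.9% of other tested genes of chromosome 19. The E-box CACGTG, a motif of MYC family proteins, was in the windows of Fen1 and Pola2 (4.76% of members, 8.09% of all genes, 11.4% of tested genes). The GC box GGGCGG was in 34 of 42 (81%), against 38.2% of all genes and 67.6% of tested genes. Each is a match of letters and not a mapped binding site.

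The 250 bases upstream of the gene start are shown for Sf1, Rtn3 and Nolc1, the 3 members with a core whose mean CPM was highest, to let their settings be compared. Capitals mark the core, as TGACGT or its reverse complement ACGTCA, and each runs 5′ to 3′ on the strand of its gene. They fall outside the rule for named genes and were chosen after no full element had been found.
Sf1, chr19:6363440-6363689, plus strand: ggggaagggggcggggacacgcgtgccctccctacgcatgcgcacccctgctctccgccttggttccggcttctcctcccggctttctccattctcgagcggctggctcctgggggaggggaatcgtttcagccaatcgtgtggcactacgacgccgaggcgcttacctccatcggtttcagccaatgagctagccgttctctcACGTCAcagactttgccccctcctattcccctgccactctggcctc
Rtn3, chr19:7483292-7483541, minus strand: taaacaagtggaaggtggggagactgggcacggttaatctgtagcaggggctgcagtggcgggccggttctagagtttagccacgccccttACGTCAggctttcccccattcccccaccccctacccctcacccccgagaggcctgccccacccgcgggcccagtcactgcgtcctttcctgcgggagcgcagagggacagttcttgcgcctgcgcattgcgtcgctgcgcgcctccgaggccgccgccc
Nolc1, chr19:46075597-46075846, plus strand: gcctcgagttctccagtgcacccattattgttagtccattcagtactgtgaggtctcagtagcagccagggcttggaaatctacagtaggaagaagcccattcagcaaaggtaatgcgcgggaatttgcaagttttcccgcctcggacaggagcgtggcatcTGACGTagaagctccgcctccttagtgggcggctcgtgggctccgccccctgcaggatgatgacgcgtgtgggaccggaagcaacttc
The motif began 46, 159 and 88 bases before the gene start. Log2 fold changes of these genes were 0.57, 1.03 and 1.13, and the other members with a core, Rbm4 and Tcf7l2, had 0.77 and -0.85.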

How the data were processed

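Poly(A) RNA was isolated from TRIzol extracts and sequenced with an NEBNext Ultra kit, per the labels' protocols. The authors deposited raw read counts per gene for each library; bcl2fastq 1.8.2, TopHat2 2.0.12, HTSeq 0.6.1 and mm9 are named per the submitters' processing notes. The sources used here give neither the annotation nor the use of strand, so reads of overlapping or antisense genes may be mixed. Left out were 5 rows without a gene name. Gene positions came from a RefSeq table of another build, GRCm38.p6, used for gene order and promoters; 14708 of 14804 tested genes matched.

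Genes were kept by filterByExpr (count 10, total 15), libraries scaled by the TMM method, and the test was the edgeR 4.0.16 quasi-likelihood test in R 4.3.3 over all genes and all 14 libraries, with no covariate. A gene was called at a Benjamini-Hochberg adjusted p under 0.05. Scores used log2 CPM with a prior count of 2. Alternatives were DESeq2 1.42.0, limma-voom (limma 3.58.1), other scalings and filters, a replicate block, a term for markers of other cell types and leaving out each library. Leaving out RPC tumours 3, 5 and 6 was added after seeing the data. Simulated counts were used to check the fit.

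The members and all lists were chosen with earlier results of these data known. In each function group full values were given for the 2 members with the highest mean CPM and the 2 with the largest absolute log2 fold change. Full values for Capn1, Tcf7l2, Jak2, Rela, Nfkb2, Ahnak and Cdc42ep2 were given outside that rule. Per member the partner with the highest mean CPM was named. Other partners were named after their values were seen. As tumours are not tied to mice in the labels, p-values reflect only the variation among these samples and treat each sample as independent. Over 42 pairs of libraries within a genotype, counts differed by more than sampling noise (lowest chi-square per degree of freedom 62.1), so none was counted as a duplicate.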

Additional observations from a re-analysis of the deposited data

Results flagged for a closer look

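In 152 groups of 7 libraries, 10 held a library far from the others of its genotype; chance flags about 1 in 20 groups. RPC tumour 1 was low for Mus81 (11.9 CPM, next 19.96 CPM), for Sdhaf2 (24.9 CPM, next 35.6 CPM) and in the score of the other chromosome 19 genes (0.029, next 0.48). RPC tumour 2 was high for Cdc42ep2 (6.18 CPM, next 1.89 CPM), and RPC tumour 5 for the partner Ppp1r8 (182.8 CPM, next 127.7 CPM). RP tumour 7 was high in the member score (0.34, next 0.024), and RP tumour 1 for Smc5 (157.1 CPM, next 80.9 CPM). Among other partners, RP tumour 3 was high for Smc6 (501.5 CPM, next 213.2 CPM) and Fbl (262 CPM, next 120.3 CPM), and RP tumour 4 was low for Sf3b1 (218.2 CPM, next 390.6 CPM).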

How the results depend on the processing

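Of 1012 member fold changes over the alternatives, 10 had the other sign, in 4 members, and 0 of the 23 called members changed sign. Ahnak was 0.62 with the marker term, 0.43 without RPC tumours 3, 5 and 6, 0.065 without RP tumour 7 and 0.0075 without RPC tumour 6. Capn1 was 0.14 with the marker term, 0.074 without RP tumour 7 and 0.037 without RPC tumour 6. Cdc42ep2 was 0.34 with the marker term and 0.28 without the 3 tumours, and Sgms1 was -0.29 without RPC tumour 2. Calls were less stable: members called numbered 4 with the replicate block, 0 with the marker term and 0 without RPC tumours 3, 5 and 6, and 5 to 29 leaving out 1 library. Other chromosome 19 genes called numbered 155 with DESeq2, 8 with the block and 0 in both of the others, and 11 to 100 leaving out 1 library. Partners called numbered 7 with DESeq2, 0 with the block and in both of the others, and 0 to 4 leaving out 1 library. The members' median log2 fold change ranged from 0.70 to 0.81 and the score difference from 0.69 to 0.81 leaving out 1 library. The cause was not tested. Deviations of same-numbered tumours correlated at 0.29, 0.22 and 0.32 for numbers 3, 5 and 7, each highest with its own number, and at -0.054 to 0.045 for the other 4. The labels give the numbers no meaning and not every pair correlated, so the numbers were not taken to pair the tumours; Nfkbia had an adjusted p of 0.0518 with the block (edgeR).

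Among partners, 34 of 690 values reversed. With the marker term these were Pcna -0.017, Smc6 -0.22, Bcas2 -0.0061, U2af2 -0.031, Sf3b1 -0.0089, Ube2n -0.056, Tmpo -0.054, Ikbkb 0.16 and Gna11 -0.0094. Without RPC tumours 3, 5 and 6 they were Pcna -0.013, Smc6 -0.17, Bcas2 -0.010, U2af2 -0.017, Ube2n -0.023, Tmpo -0.052, Ikbkb 0.20 and Gna11 -0.021. Ppp1r8 was 0.025 with limma-voom and 0.017 with the block. Leaving out 1 library, Smc6 ranged from -0.067 to 0.35, Sf3b1 from -0.0023 to 0.20, Capns1 from -0.21 to 0.0075, Ikbkb from -0.17 to 0.046, Gna11 from -0.0050 to 0.10 and Ppp1r8 from -0.22 to 0.12.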
